A study of Mus musculus with 4 samples.

Results

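The genes described here encode heterotrimeric G proteins, adenylyl cyclases, regulators of G protein signalling (RGS proteins), cyclic nucleotide phosphodiesterases and subunits of protein kinase A. They were taken by gene symbol: every probe set with a single symbol starting with Gna, Gnb, Gng, Adcy, Rgs, Pde or Prkar, or equal to Prkaca or Prkacb, without Gnas and Adcyap1. The choice gave 91 probe sets of 64 genes, out of 10833 probe sets of 8251 genes with a single symbol and 12422 probe sets in all. Of the 91, 5 probe sets of 3 genes share only the spelling and not the biochemical class: the receptor gene Adcyap1r1, the antisense RNA gene Gnasas1 and the scaffold gene Pde4dip. Expression was measured in prefrontal cortex RNA on 4 single-channel arrays, 2 for pools of transgenic female mice carrying and overexpressing the synaptic form of human acetylcholinesterase (AChE) and 2 for control pools of female FVB/N mice. Each pool held RNA from 4 mice, and with so few arrays their number limits precision throughout. The labels used here give neither the age of the mice, the promoter that drives the transgene nor the strain background of the transgenic mice. Nor do they tell if both pools of a group were made from separate mice. The p-values therefore reflect only how far these arrays scatter, which may be technical. Any batch in which the groups were handled separately, any difference in strain background and the transgene itself cannot be told apart.

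G proteins carry signals from cell surface receptors, the muscarinic receptors for acetylcholine among them, to enzymes and channels inside the cell. An alpha subunit binds GTP, leaves its beta and gamma partners, and then stimulates or restrains adenylyl cyclase, activates phospholipase C or acts on exchange factors for small GTPases, depending on its class. RGS proteins end the signal by speeding GTP hydrolysis, phosphodiesterases break down cAMP and cGMP, and cAMP releases the catalytic subunits of protein kinase A from its regulatory subunits. In cortical neurons this cascade sets excitability and synaptic strength in response to acetylcholine, dopamine and noradrenaline.

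The arrays had been scaled to a common level, with median intensities of 87.45 and 88.2 in transgenic pools and 87.4 and 86.6 in control pools. Mouse Ache, read by the probe set listed for the mouse gene (104650_at), had 365.3 and 355.6 in transgenic pools, against 599.5 and 621.9 in control pools, which does not check the human transgene. Xist, the RNA that marks female cells, read 178.5 and 228 in transgenic pools and only 29.3 and 21.1 in control pools, although all pools are labelled female. The Xist difference passed in limma (log2 change 3.02 ± 0.31 SE, adjusted p = 0.000165). Its source was not tested, and it cannot be told apart from the transgene. The 3 probe sets of Y-linked genes read 28 or less on every array. The cortical transcription factor gene Tbr1 had 1317.5 and 1513.9 in transgenic pools and 1399.1 and 1817.7 in control pools, and the 3 measured choroid plexus genes of a list of 4 read at most 57.5. Summed over the 2 measured blood genes of a list of 4, intensity was 8472.8 and 6945.1 in transgenic pools and 2779.4 and 2396.4 in control pools, and both genes rose. The summed intensity of the 7 endothelial and mural genes was 757.7 and 757.2 in transgenic pools and 528.2 and 540.4 in control pools (2 of 5 tested probe sets higher, both of Flt1). At 98453_at Flt1 read 169.8 and 152.8 in transgenic pools, against 17 and 19.5 in control pools. Cdh5 had a log2 change of 0.17, Acta2 -0.19 and Pecam1 -0.18, and none of them passed. This sum thus rests on Flt1 and does not stand for its list. The summed intensity of the 6 interneuron genes was 9069.1 and 8899 in transgenic pools and 10367.6 and 10645.1 in control pools (2 of 7 lower, Npy and Sst). Of these 7 probe sets 3 had changes above 0 and 4 below. Gad1 was higher in both transgenic pools (3035.8 and 3198.5, against 2409.2 and 2549.3) but did not pass (adjusted p = 0.0846). Summed intensity of 6 astrocyte genes was 6635.3 and 7057.7 in transgenic pools and 5913.9 and 5941.6 in control pools. Of their 8 probe sets 3 were higher, of Aqp4 and Fabp7, and 1 lower, of S100b. The sum does not stand for the whole list, since 5 of the 8 changes lay below 0 and the median log2 change was -0.06. Lists for cortical projection neurons, oligodendrocytes and microglia had 1 lower probe set each, of Camk2a, Mobp and Tyrobp, and no higher one. Projection neuron genes summed to 3810.1 and 3410 in transgenic pools and 4291.2 and 4629 in control pools (1 tested change above 0, 3 below). Oligodendrocyte genes summed to 3860.6 and 4325 against 4453.2 and 5399.6 in control pools (4 above, 5 below). Microglia genes summed to 2018.8 and 1796.6 against 2359.8 and 2266 in control pools (1 above, 6 below). Lists for striatum and photoreceptors had no call in limma, nor an unadjusted p under 0.05. The 3 measured striatal genes of a list of 8 summed to 4296 and 2868 in transgenic pools and 2111.6 and 4336.9 in control pools. Most of each sum was Penk at 94516_f_at, with 3710.4 and 2395.2 in transgenic pools and 1779.1 and 3621.9 in control pools. The wide spread between pools of the same group thus rests mainly on that probe set. Tac1 read 342.2 and 302.4 in transgenic pools, and 157.8 and 471.9 in control pools. In the photoreceptor list only 1 probe set was tested. The part of these markers in the results below was not tested.

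The comparison asked which of these signalling genes differ between transgenic and control cortex. Of the 91 probe sets, 69 of 52 genes were bright enough to be tested, that is, they had a mean log2 intensity higher than the 40th percentile of all probe sets. Values under 19.675, the 25th percentile of all intensities, were set to that floor before taking log2. With limma and Benjamini-Hochberg adjustment over all 7453 tested probe sets, 9 of the 69 passed an adjusted p of 0.05, 6 higher and 3 lower in transgenic pools. That is 13.0%, against 10% of all tested probe sets (5.46% higher and 4.56% lower), so the number of calls was near the level of the whole array. The 6 that rose were Gna13, Adcy9, Gna11, Gnaz, Rgs7 and Gng10, and the 3 that fell were Rgs11, Gnao1 and Prkar1b. The median log2 change of the 69 was -0.12, and that of all tested probe sets -0.03. Most values lay close to 0: 50 of the 69 (72.5%) changed by less than 0.5 on the log2 scale, against 81% of all tested probe sets. Changes beyond 2 were reached by 3 of the 69 (4.35%), all of them rises, and by 133 of all 7453 (1.78%). An unadjusted p under 0.05 was reached by 24 of the 69, against 1811 of all 7453 tested probe sets (24.3%). The share was larger among the members, which were chosen with earlier results of these data known. Some genes also gave more than 1 of the probe sets, so this comparison is a description and not a test. The transgenic and control arrays did not overlap in 47 of the 69 (68.1%), against 53.7% of all tested probe sets. Of the 69, 5 met the intensity filter only through the brighter group: Gna13 at 100514_at and Prkar2a through the transgenic pools, and Gna12 at 97227_at, Gnb3 and Pde9a through the control pools. Of these 5 only Gna13 passed.

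**Figure D1:**
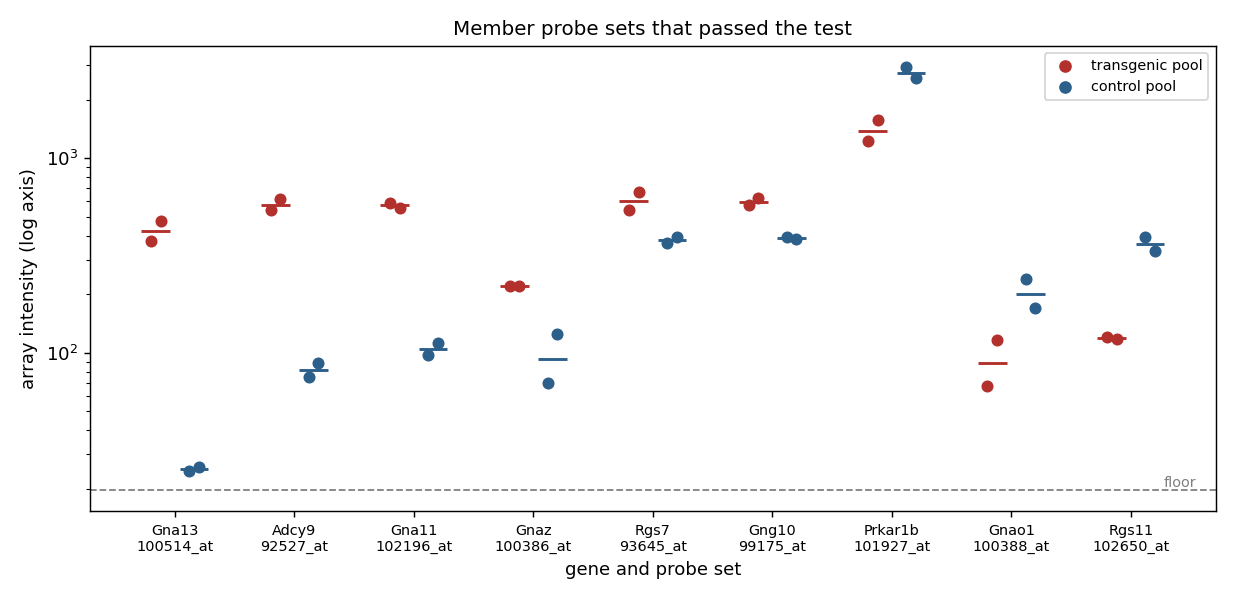
Array intensity (log axis) of the 9 probe sets that passed, with the 2 transgenic pools left of the 2 control pools; points are pools, horizontal lines are geometric means and the dashed line is the floor of 19.675. Gna13 stands out, with both control pools near the floor (24.6 and 25.7) and both transgenic pools at 375.8 or above.

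The 3 large rises were in genes for alpha subunits and a cyclase. In tissue RNA such as this, more cells of a type and more RNA per cell cannot be told apart. Gna13 encodes an alpha subunit that acts on exchange factors for small GTPases. Its probe set 100514_at read 375.8 and 476.2 in transgenic pools, against 24.6 and 25.7 in control pools. The control pools thus lay just above the floor, and the groups were far apart. The rise was 16.8-fold (log2 change 4.07 ± 0.24 SE, adjusted p = 4.08e-06), and 3.06 on the log2 scale when the floor was set at the 40th percentile.

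Adcy9 encodes a widely expressed membrane adenylyl cyclase that is restrained by calcium signals and is only weakly responsive to forskolin. Probe set 92527_at read 538.9 and 612.9 in transgenic pools, against 75.4 and 88.5 in control pools. Each group was tight, and the gap between groups exceeded the spread within them several times over. Adcy9 rose 7.04-fold at this probe set (log2 change 2.81 ± 0.18 SE, adjusted p = 8.06e-06).

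Gna11 encodes an alpha subunit that activates phospholipase C and serves the muscarinic receptors of the excitatory type. Probe set 102196_at read 588.9 and 553.7 in transgenic pools, against 97.6 and 111.8 in control pools. The groups did not overlap, and the rise was 5.47-fold (log2 change 2.45 ± 0.17 SE, adjusted p = 1.27e-05). Gna13, Adcy9 and Gna11 also passed under every alternative in which they were tested, with adjusted p of at most 0.00914.

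A second probe set of each of these 3 genes, listed under another source sequence, did not pass. For Gna13, 104316_at read 86 and 100.4 in transgenic pools and 67.5 and 88 in control pools, which overlap (log2 change 0.27 ± 0.27 SE, adjusted p = 0.598). For Adcy9, 98356_at read 610.7 and 556.3 in transgenic pools and 727.1 and 733.6 in control pools, with the transgenic pools the lower (log2 change -0.33 ± 0.13 SE, adjusted p = 0.167). For Gna11, 103411_at read 457.7 and 405.1 in transgenic pools and 402.6 and 545.7 in control pools, so the transgenic pools lay inside the range of the controls (log2 change -0.12 ± 0.18 SE, adjusted p = 0.732).

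Whether the probe sets of a gene differed from each other was tested with limma on their difference within each array, over all 1213 pairs of tested probe sets of the same gene (909 genes). The change at the risen probe set exceeded that at its partner by 3.80 ± 0.25 for Gna13 (adjusted p = 8.53e-05), by 3.14 ± 0.25 for Adcy9 (adjusted p = 0.000231) and by 2.57 ± 0.24 for Gna11 (adjusted p = 0.000446). In all, 4 of the 22 pairs from 13 member genes passed, against 121 of all 1213 pairs (9.98%). The fourth was a pair of Gnao1. The probes' own sequences were not used here, so which part or form of the transcript each probe set reads was not tested.

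**Figure D2:**
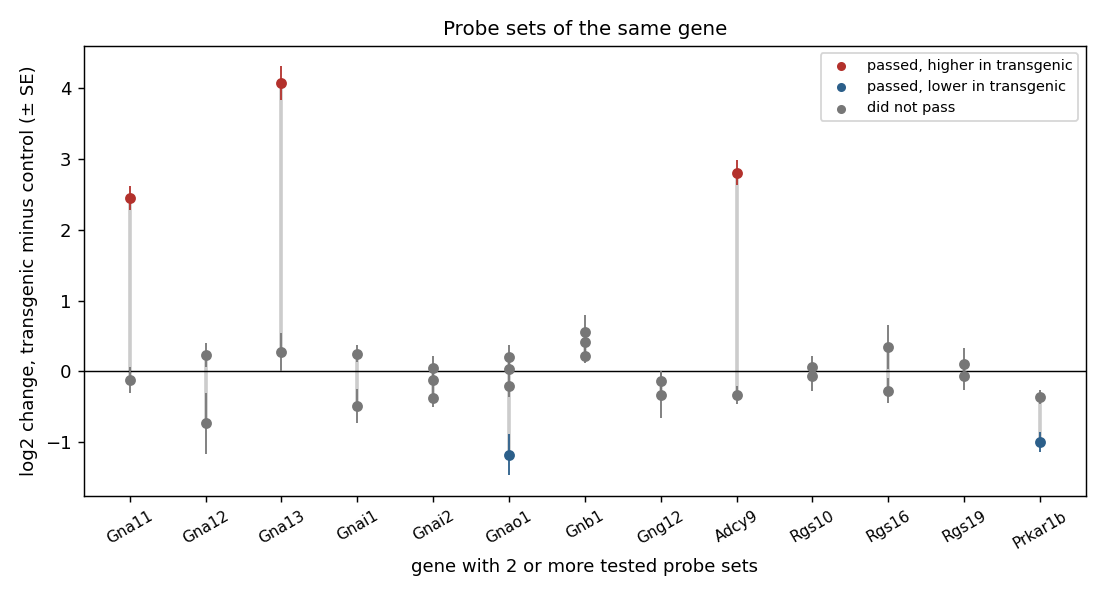
Log2 change (transgenic minus control, ± SE) of each tested probe set of the 13 genes with 2 or more, joined by a grey line within a gene. For Gna13, Adcy9 and Gna11 a single probe set lies above 2 while the other lies between -0.33 and 0.27.

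The upstream regions of these 3 genes are shown because they gave the largest changes and because a cAMP response element is the site through which this cascade reaches its target genes. Each is the 250 bases before the RefSeq transcript start, 5′ to 3′ on the gene's strand in build GRCm38.p6, with capitals marking the cAMP response element half-site TGACG or the GC box GGGCGG on either strand. Gna13 lies at chr11:109362544-109362793 (plus strand), Adcy9 at chr16:4420499-4420748 (minus strand) and Gna11 at chr10:81545163-81545412 (minus strand).
Gna13: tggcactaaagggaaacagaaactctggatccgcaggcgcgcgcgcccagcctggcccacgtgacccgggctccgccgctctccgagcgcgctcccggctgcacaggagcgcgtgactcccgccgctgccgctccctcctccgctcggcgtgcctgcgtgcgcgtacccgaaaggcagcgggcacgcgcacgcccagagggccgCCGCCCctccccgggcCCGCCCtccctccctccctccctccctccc
Adcy9: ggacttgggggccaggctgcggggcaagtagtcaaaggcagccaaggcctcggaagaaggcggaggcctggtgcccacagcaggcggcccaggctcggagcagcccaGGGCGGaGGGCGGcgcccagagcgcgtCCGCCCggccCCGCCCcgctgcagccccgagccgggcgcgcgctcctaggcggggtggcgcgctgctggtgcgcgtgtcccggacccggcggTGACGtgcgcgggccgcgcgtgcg
Gna11: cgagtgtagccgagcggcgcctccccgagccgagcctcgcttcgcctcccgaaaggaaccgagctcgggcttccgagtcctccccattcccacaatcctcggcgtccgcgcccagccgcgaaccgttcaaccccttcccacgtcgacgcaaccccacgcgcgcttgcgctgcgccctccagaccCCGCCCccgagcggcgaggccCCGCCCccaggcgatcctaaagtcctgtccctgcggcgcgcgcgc
All 3 windows were rich in G and C, at 76%, 78.8% and 73.2%. GC boxes were found 2 times in Gna13, 4 times in Adcy9 and 2 times in Gna11, while a TGACG half-site was found only in Adcy9, at 1 place. A TGACG half-site was present in 17.8% of all 32851 RefSeq windows of this length and in 16 of the 81 windows of the 48 member genes that matched (19.8%). A GC box was present in 32.7% and in 32 of the 81 (39.5%). A match is a description of the letters and not a test of binding.

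Among the inhibitory alpha subunits, which lower cAMP, the calls were split. Gnaz, a neuronal and platelet member of that class, read 221.2 and 219.3 in transgenic pools, against 69.5 and 124.5 in control pools. The transgenic pools were nearly equal and both lay above the more scattered controls, a 2.37-fold rise (log2 change 1.24 ± 0.27 SE, adjusted p = 0.0193). Leaving out transgenic replicate 1 or 2 moved the adjusted p to 0.165 or 0.187, dropping the intensity trend to 0.0787, and testing without the intensity filter to 0.106.

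Gnao1 encodes the most abundant alpha subunit of brain, and 5 probe sets read it. At 100388_at it read 67.7 and 116.1 in transgenic pools, against 238.2 and 170.2 in control pools. Both transgenic pools lay below both controls, so Gnao1 fell 2.27-fold here (log2 change -1.18 ± 0.29 SE, adjusted p = 0.0309), and this no longer passed without control replicate 1 (0.0775), without either transgenic replicate (0.187 and 0.0573), without the intensity trend (0.102) or without the intensity filter (0.134). A second probe set, 103843_at, read 4217.9 and 3941.4 in transgenic pools and 3870.5 and 4082.6 in control pools. Here the groups overlapped, with a log2 change of 0.04 ± 0.10 SE (adjusted p = 0.872). Probe sets 104414_at and 161902_f_at had 0.21 ± 0.16 and -0.21 ± 0.15 and did not pass, and 103844_at was under the floor on every array. The change at 100388_at differed from that at 104414_at by -1.40 ± 0.35 (adjusted p = 0.0495) but the differences from 103843_at (0.0891) and 161902_f_at (0.101) did not pass.

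The inhibitory alpha genes Gnai1, Gnai2 and Gnai3 did not pass at any of their 6 probe sets, whose log2 changes ran between -0.49 and 0.25. Gnai1 had 1789.9 and 1996.8 in transgenic pools and 1652.9 and 1535.9 in control pools at 104412_at. Both transgenic pools were the higher there (log2 change 0.25 ± 0.12 SE, adjusted p = 0.24), whereas 97195_at had -0.49 ± 0.24 (adjusted p = 0.256). Gnai2 read 4310.2 and 3423.1 in transgenic pools and 4173.9 and 4160.7 in control pools at 99596_f_at. These groups overlapped (adjusted p = 0.624). At 99598_g_at Gnai2 was lower in both transgenic pools (1986.2 and 1617, against 2251 and 2385.6), with -0.37 ± 0.13 (adjusted p = 0.107). Its probe set 99597_at had 0.05 ± 0.17 (adjusted p = 0.905). Gna12, the close relative of Gna13, had 0.23 ± 0.17 at 97226_at and -0.73 ± 0.43 at 97227_at, and neither passed. In all 17 probe sets of 8 alpha subunit genes were tested, with 10 changes above 0, 7 below and a median of 0.05.

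The other alpha genes lay under the intensity limit. Gnaq, the main partner class of the excitatory muscarinic receptors together with Gna11, read 29.3 and 60.8 in transgenic pools and 62.9 and 20.3 in control pools, and was not tested. Gna14, Gna15 and the photoreceptor genes Gnat1 and Gnat2 read at most 49.5 on any array. Gnal, which replaces Gnas in striatum and olfactory neurons, was not analysed here.

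None of the 7 tested probe sets of the 5 beta subunit genes passed the adjusted threshold in limma, and 3 of the 7 had an unadjusted p under 0.05, 2 of them probe sets of Gnb1. Gnb1, the most widely used beta subunit, read 4583.8 and 4177.8 in transgenic pools and 3683.3 and 3847.2 in control pools at 97458_at. The transgenic pools were higher at all 3 of its probe sets, with log2 changes of 0.22, 0.42 and 0.56 (adjusted p = 0.238, 0.115 and 0.191). The change of 0.56, at 94853_at, was 0.99 (adjusted p = 0.0372) without transgenic replicate 1 and 0.13 (adjusted p = 0.708) without transgenic replicate 2. Gnb2 had -0.29 ± 0.11 (adjusted p = 0.131), Gnb5, the brain subunit that binds RGS proteins, had -0.39 ± 0.18 (adjusted p = 0.219), and Gnb3 and Gnb4 had -0.71 ± 0.37 and 0.44 ± 0.34.

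Among the gamma subunits, which anchor the beta-gamma pair to the membrane, Gng10 rose. It read 576.9 and 620.1 in transgenic pools, against 391.9 and 385.7 in control pools. The groups were well separated, a 1.54-fold rise (log2 change 0.62 ± 0.14 SE, adjusted p = 0.0215), although the adjusted p was 0.0868 and 0.134 without transgenic replicate 1 or 2 and 0.0835 without the intensity trend. Gng3, a gamma subunit of neurons, read 4940.7 and 4327.7 in transgenic pools and 6040.9 and 5276 in control pools. Both transgenic pools were lower, but the change did not pass (log2 change -0.29 ± 0.11 SE, adjusted p = 0.155). Gng2 had -0.81 ± 0.30 (adjusted p = 0.126) and Gng4 -0.39 ± 0.29 (adjusted p = 0.452), while Gng11 and Gng12 had changes between -0.34 and 0.22 at their 3 tested probe sets. The median of the 7 tested gamma probe sets was -0.29. It was -0.15 with quantile normalization and -0.13 with the filter at the 60th percentile, which left 3 probe sets. Without control replicate 2 it was -0.39, and without transgenic replicate 2 it was -0.19. Gngt2, of cone photoreceptors, was under the floor on every array.

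No other adenylyl cyclase passed besides Adcy9. Of the 8 cyclase probe sets 4 had an unadjusted p under 0.05, and 2 of these were the Adcy9 probe sets, whose changes have opposite signs. Adcy8, a calcium-stimulated cyclase, read 166.6 and 154.9 in transgenic pools and 110 and 98 in control pools. Transgenic pools were the higher, but the difference did not pass (log2 change 0.63 ± 0.21 SE, adjusted p = 0.0909). Adcy6, a calcium-inhibited cyclase, read 226.7 and 199.1 in transgenic pools and 304.6 and 341.5 in control pools, and its log2 change of -0.60 ± 0.17 lay just outside the threshold (adjusted p = 0.0527, between 0.0387 with the filter at the 60th percentile and 0.225 without control replicate 2). Adcy2 had 1938.7 and 1300.8 in transgenic pools and 1692.3 and 1908.9 in control pools, which overlap (adjusted p = 0.596). Adcy3, Adcy4 and Adcy7 had log2 changes of -0.13, -0.42 and -0.24 and did not pass. Adcy1 and the striatal cyclase gene Adcy5 were not analysed here. Over the 8 cyclase probe sets the median log2 change was -0.21 (-0.31 without transgenic replicate 1 and -0.05 without transgenic replicate 2), with 1 rise and no fall.

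**Figure D3:**
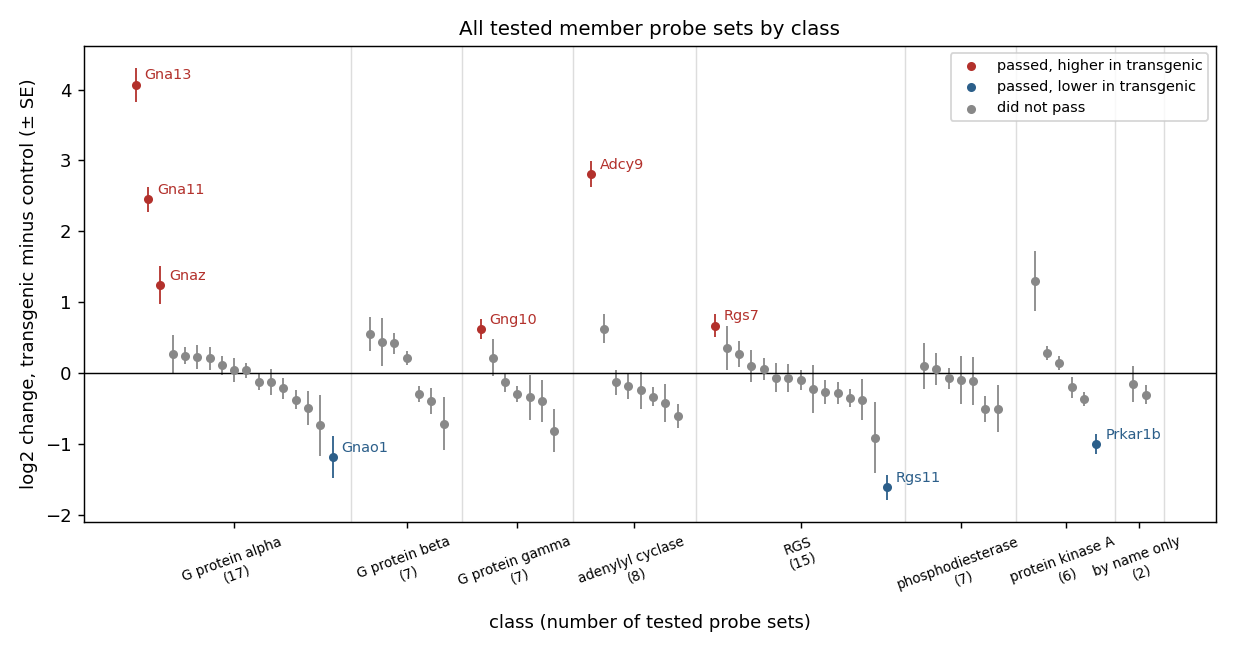
Log2 change (transgenic minus control, ± SE) of the 69 tested probe sets, sorted within each class, with the number per class in brackets. The alpha subunits have 4 calls among 17 probe sets (23.5%, against 10% of all tested probe sets). The beta subunits, the phosphodiesterases and the probe sets included by name only have none.

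The RGS genes gave a rise and a fall among 15 tested probe sets of 12 genes, with a median of -0.09. Both calls were in the subfamily whose proteins pair with Gnb5 and act on inhibitory alpha subunits. Rgs11 read 120.4 and 117.6 in transgenic pools, against 393.4 and 334.4 in control pools. The groups lay far apart, and Rgs11 fell 3.05-fold (log2 change -1.61 ± 0.18 SE, adjusted p = 0.000304). The fall also passed under all 10 alternatives. A second Rgs11 probe set, 161309_r_at, was under the floor on every array.

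Rgs7 moved the other way. It read 544.1 and 666.7 in transgenic pools, against 365.9 and 392.8 in control pools. The groups did not overlap, a 1.59-fold rise (log2 change 0.67 ± 0.16 SE, adjusted p = 0.0252), which did not pass without transgenic replicate 1 or 2 (0.0622 and 0.17), without control replicate 1 (0.0537), without the intensity trend (0.0986) or without the intensity filter (0.0689). Rgs6 of the same subfamily had -0.22 ± 0.34 (adjusted p = 0.749). Rgs9, whose product is concentrated in striatum and retina, read 15.6 and 14.6 in transgenic pools and 4.8 and 10.1 in control pools, all under the floor.

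Rgs4, a regulator abundant in cortical neurons, read 42.9 and 161.8 in transgenic pools and 177.8 and 138.4 in control pools. The first transgenic pool lay far below the controls and the second between them, and its log2 change of -0.91 ± 0.50 did not pass (adjusted p = 0.302), with -1.87 (adjusted p = 0.0356) without transgenic replicate 2 and 0.04 (adjusted p = 0.94) without transgenic replicate 1. Rgs14, known from hippocampal neurons, read 1451.4 and 1219.1 in transgenic pools and 1675.4 and 1714.9 in control pools. Both transgenic pools were lower, but the change of -0.35 ± 0.13 did not pass (adjusted p = 0.122). Rgs2, an activity-induced gene, had 0.27 ± 0.18 (adjusted p = 0.42), and the pericyte gene Rgs5 had -0.37 ± 0.29 (adjusted p = 0.486) at 103294_at. Rgs3, Rgs8, Rgs10, Rgs16 and Rgs19 had changes between -0.28 and 0.35 at 8 tested probe sets.

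None of the 7 tested phosphodiesterase probe sets passed in limma, and 1 had an unadjusted p under 0.05. That was Pde1b, a calmodulin-activated phosphodiesterase of forebrain neurons, which read 1345.1 and 956.4 in transgenic pools and 1411.9 and 1831.6 in control pools. Both transgenic pools were lower, and the log2 change was -0.50 ± 0.18 and did not pass (adjusted p = 0.122). It was -0.69 (adjusted p = 0.00951) when control replicate 1 was left out and -0.26 (adjusted p = 0.513) when transgenic replicate 2 was. Pde4b, a cAMP-specific enzyme, had 0.06 ± 0.22 (adjusted p = 0.91), and Pde1a had -0.11 ± 0.34 at the tested probe set. Its other probe set, 99453_at, read 47.7 and 76.5 in transgenic pools and 35.8 and 28.8 in control pools and was not tested. Pde6d, Pde7a, Pde8a and Pde9a had changes between -0.50 and 0.10. The photoreceptor genes Pde6a, Pde6b and Pde6g read at most 62.4 on any array, Pde1c was under the floor on every array, and none of these was tested. Pde2a, Pde4a, Pde4d, Pde7b and Pde10a were not analysed here.

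Of the 6 probe sets for protein kinase A subunits, all tested, 1 fell and none rose. The regulatory subunit gene Prkar1b, which is expressed mainly in neurons, read 1217.3 and 1561.7 in transgenic pools at 101927_at, against 2935.3 and 2575.2 in control pools. Both transgenic pools lay well below the controls, and Prkar1b fell 1.99-fold (log2 change -1.0 ± 0.14 SE, adjusted p = 0.00173). The fall passed under all 10 alternatives. A second probe set, 94944_at, read 4131.5 and 3744.9 in transgenic pools and 5195.4 and 4914.6 in control pools. It was lower in both transgenic pools as well, with -0.36 ± 0.10 (adjusted p = 0.0587, just outside the threshold). The difference between the probe sets, -0.63 ± 0.27, did not pass (adjusted p = 0.224).

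The widespread regulatory subunit gene Prkar1a read 4236.3 and 4586.6 in transgenic pools and 4035.2 and 3899 in control pools. The log2 change was 0.15 ± 0.10 and did not pass (adjusted p = 0.412). Prkar2a read 71.3 and 88.6 in transgenic pools and 22.2 and 47.1 in control pools, with a log2 change of 1.30 ± 0.42 that did not pass (adjusted p = 0.0874). It was 1.84 (adjusted p = 0.00472) without control replicate 2, the higher of the controls, 0.75 (adjusted p = 0.338) without control replicate 1, and 0.64 (adjusted p = 0.15) with the floor at the 40th percentile. The catalytic subunit genes Prkaca and Prkacb had -0.20 ± 0.15 and 0.29 ± 0.10 (adjusted p = 0.473 and 0.124). Prkar2b was not analysed here.

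Of the probe sets included by spelling alone, those tested did not pass. Adcyap1r1, the receptor for the peptide PACAP, had -0.15 ± 0.25 (adjusted p = 0.768), and Pde4dip, a scaffold protein gene, had -0.30 ± 0.13 (adjusted p = 0.189). Gnasas1, an imprinted antisense RNA, read at most 23.2 on any array. In all 22 member probe sets were not tested. They read at most 76.5 on any array, 10 of them were under the floor on every array, and 12 genes had no tested probe set.

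Other genes of the same pathways, taken from 6 lists, gave 4 calls among 37 tested probe sets (10.8%, against 10% of all tested), with a median log2 change of -0.02. Of 11 probe sets for kinase anchoring and inhibitor genes, 1 was higher and 1 lower. The kinase A inhibitor gene Pkia read 82.8 and 122.9 in transgenic pools at 98004_at, against 270.4 and 200.8 in control pools (log2 change -1.21, adjusted p = 0.0145), and probe set 98005_at had -0.42 (adjusted p = 0.103). Akap8, a nuclear anchoring protein gene, rose by 1.36 at 95001_at (adjusted p = 0.0288), while its other tested probe sets had 0.15 and -0.30 and did not pass. Of 4 probe sets for receptor kinases and arrestins, 1 was higher: the beta-arrestin gene Arrb1 rose by 0.67 at 162481_f_at (adjusted p = 0.016), with 0.11 at 100473_at (adjusted p = 0.721).

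Of 7 probe sets for G protein effectors and related genes, 1 was higher. Rasd1, a Ras-like protein that modulates G protein signalling, read 86.3 and 74.2 in transgenic pools, against 28.9 and 32.5 in control pools (log2 change 1.38, adjusted p = 0.0322). The call was lost without the intensity filter (adjusted p = 0.0538) and with the floor at the 40th percentile (0.65, adjusted p = 0.135). The Rasd1 and Akap8 probe sets met the filter only through the transgenic pools, so their mean log2 intensity in control pools, 4.94 and 5.24, lay below its limit of 5.63. None of the 8 probe sets for cAMP effectors and targets, the 6 for other regulators of G proteins or the 1 for cGMP synthesis passed in limma, with 1, 1 and 0 at an unadjusted p under 0.05. The calls of Pkia, Akap8, Arrb1 and Rasd1 were all lost when either transgenic replicate was left out. Without the intensity filter the calls of Pkia (adjusted p = 0.0866) and Akap8 (adjusted p = 0.0823) were also lost, without the intensity trend those of Pkia (0.0604) and Arrb1 (0.066), and without control replicate 1 those of Akap8 (0.0692) and Rasd1 (0.0517).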

How the data were processed

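Each deposited value is a linear intensity, 1 for each array and probe set. No header names this unit, so it was inferred from values that never fall below 0. The authors had scaled the arrays to a common level before deposit, as the values show. The sources used here do not give how they summarised probes into an intensity. The arrays' medians agreed within 1.85% and their upper quartiles within 2.29%, so no further normalization was applied. Of 12488 rows, 66 control probe sets were left out. Gene symbols came from GEO's platform annotation, updated through gene identifiers to RefSeq (assembly GRCm38.p6). It lists a single symbol for 10833 probe sets, more than 1 symbol for 396, and no symbol for 1193. Probe positions are left out because their build is unnamed.

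Intensities were floored at the 25th percentile (19.675), log2-transformed, and tested when the mean log2 value lay above the 40th percentile. Between 24.0% and 25.9% of an array's values lay at the floor. Transgenic minus control was fitted in R 4.3.3 with limma 3.58.1 (lmFit, then eBayes with a trend on intensity; two-sided tests; 2 residual and 7.507 prior degrees of freedom, Benjamini-Hochberg over all 7453 tested probe sets). Adjusted p-values come from that fit unless another is named. Folds are back-transformed log2 changes. Pairs of probe sets of the same gene were tested with limma, without a trend, on their log2 difference. Both fits were tested on simulated data, where the fit of single probe sets missed some changes of 1 log2 unit. Log2 changes had a median SE of 0.188. The design has no covariate. The samples were grouped by title, and the titles do not tell if the shared numbers 1 and 2 pair the arrays. They were not treated as pairs (correlation of same-numbered deviations 0.0555), which does not settle the question. The members and lists were chosen with earlier results of these data known. The naming rule took the member probe sets that passed, the others of those genes, a list of forebrain members, and passing members of the 6 pathway lists. Further members are named so that every member is accounted for, chosen after their values were seen. The marker lists cover striatum, cortical projection neurons, interneurons, astrocytes, oligodendrocytes, microglia, endothelial and mural cells, choroid plexus, blood and photoreceptors. Alternatives changed the floor, filter, trend, scaling, replicate block and arrays used. Upstream sequences came from RefSeq.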

Additional observations from a re-analysis of the deposited data

How the results depend on the processing

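The 10 alternatives gave between 5 and 10 member probe sets past the threshold, against 9 as reported. The lowest, 5, came without the intensity trend, and leaving out an array gave 6 to 10. No call changed direction, while 23 sign changes occurred among probe sets that passed in neither setting. Over all probe sets the count was 747, but 406 without the intensity filter and 395 without the trend, and 303 to 749 when an array was left out, the lowest without transgenic replicate 1. Filtering at the 60th percentile turned the balance, to 300 higher and 347 lower, against 407 and 340. The pathway lists had 4 calls, but 1 without the filter, 2 with the filter at the 60th percentile and 0 to 4 when an array was left out. The counts of 0, in limma without transgenic replicate 1 or 2, stood beside 7 and 12 probe sets with an unadjusted p under 0.05. The cause of these differences was not tested. The median of the members ranged from -0.13 to -0.04 over the arrays left out. With a replicate block 10 members passed, the addition being Prkar1b at 94944_at, and 892 probe sets in all. Whether the replicate numbers pair the arrays is not known from the titles. Quantile normalization gave 9 member calls. Where an array was left out, the lone array of its group was assumed to vary like the other group. The prior degrees of freedom then differed widely. They were 3.972 and 3.932 without transgenic replicate 1 or 2, and 58.55 and 57.03 without control replicate 1 or 2, against 7.507 with all arrays. Calls lost or kept in these fits are thus not comparable between the groups, and the part of this setting in them was not tested. Signal near the floor limits what can be said of dim members, Gna13 in control pools and Gnaq among them.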
